A study of Mus musculus with 18 samples.

Results

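The 35 genes described here encode the enzymes of cholesterol and fatty acid synthesis and the proteins that control their transcription. They were chosen by symbol, with no expression value in the rule, as a list of genes of the sterol regulatory element-binding protein (SREBP) pathway. Earlier results of these data were known when the list was chosen. All 35 were found among the 43629 genes of the deposited count table and passed the filter on low counts that left 11964 genes for testing. Of the 35 members, 5 are regulators, 8 carry out the mevalonate and isoprenoid steps, 9 the sterol steps, 1 transports sterol, and 12 make or modify fatty acids and glycerolipids.

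AT3 is a mouse mammary carcinoma line that the study used as a model of triple-negative breast cancer. The cells received DMSO, A-241 at 250 nM or A-485 at 1000 nM for 1 h, and then IFNγ or vehicle for a further 2 h, so that all 18 libraries were taken after 3 h in DMSO or inhibitor. A-241 and A-485 are chemically distinct inhibitors of the catalytic activity of the acetyltransferases P300 and CBP, and they were used at different concentrations. The 6 conditions (DMSO, A-241, A-485, IFNγ, A-241+IFNγ and A-485+IFNγ) had 3 libraries each, all from 1 cell line. The sample labels call the triplicates biological and the study's methods call them technical, so p-values measure the spread between these libraries, which may be technical. RNA was measured by 3′ mRNA sequencing, in which a transcript is counted from reads near its 3′ end.

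In the SREBP pathway, Srebf1 and Srebf2 encode precursors that are held in the endoplasmic reticulum membrane with the escort protein Scap. When sterol is plentiful the Insig proteins retain the Scap complex there, and when it falls the complex moves to the Golgi, where proteolysis frees a transcription factor that enters the nucleus. SREBP-2 is known mainly for genes of cholesterol synthesis and uptake and SREBP-1 mainly for genes of fatty acid synthesis, and Insig1 is itself a target, which closes a feedback loop. SREBPs bind sterol regulatory elements together with NF-Y and Sp1, and P300 and CBP are known coactivators at such promoters.

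RefSeq promoter windows (GRCm38.p6, 250 bases before to 50 after an annotated start) were held for 28 of the 35 members, in 37 windows. The windows of Lpin1, Elovl6 and Msmo1 are shown because these were the members called lower in at least 1 comparison below for which a window was held. No window was held for the called members Sqle, Scd1, Scd2 and Stard4, so their promoters were not searched. That of Hmgcs1 was added after the search as the only one of the 28 members with a match to the SRE-1 core. Capitals mark matches, on either strand, to the SRE-1 core TCACNCCAC, the E-box CACGTG, the NF-Y box CCAAT or the GC box GGGCGG, and positions count from 0 at the annotated start. The letters of these motifs do not contain one another, and the E-box reads the same on both strands.
Hmgcs1 (chr13:119690101-119690400, plus strand): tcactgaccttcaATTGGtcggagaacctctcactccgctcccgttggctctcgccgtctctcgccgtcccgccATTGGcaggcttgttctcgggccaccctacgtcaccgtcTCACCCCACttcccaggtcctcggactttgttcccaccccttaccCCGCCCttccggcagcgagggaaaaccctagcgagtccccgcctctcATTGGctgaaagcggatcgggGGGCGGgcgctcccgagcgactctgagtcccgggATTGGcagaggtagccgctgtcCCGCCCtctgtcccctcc
Msmo1 (chr8:64733529-64733828, minus strand): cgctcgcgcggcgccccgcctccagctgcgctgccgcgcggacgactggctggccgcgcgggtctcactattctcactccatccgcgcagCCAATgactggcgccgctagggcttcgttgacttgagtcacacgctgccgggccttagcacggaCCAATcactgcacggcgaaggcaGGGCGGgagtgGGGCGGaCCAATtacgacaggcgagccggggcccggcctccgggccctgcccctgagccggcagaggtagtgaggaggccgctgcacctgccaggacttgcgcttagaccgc
Elovl6 (chr3:129532136-129532435, plus strand): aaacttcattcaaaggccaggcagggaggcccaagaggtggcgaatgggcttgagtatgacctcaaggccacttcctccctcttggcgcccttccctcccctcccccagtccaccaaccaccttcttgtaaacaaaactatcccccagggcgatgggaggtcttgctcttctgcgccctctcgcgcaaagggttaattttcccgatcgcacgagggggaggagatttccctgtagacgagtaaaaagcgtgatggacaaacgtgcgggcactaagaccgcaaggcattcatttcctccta
Lpin1 (chr12:16610917-16611216, minus strand): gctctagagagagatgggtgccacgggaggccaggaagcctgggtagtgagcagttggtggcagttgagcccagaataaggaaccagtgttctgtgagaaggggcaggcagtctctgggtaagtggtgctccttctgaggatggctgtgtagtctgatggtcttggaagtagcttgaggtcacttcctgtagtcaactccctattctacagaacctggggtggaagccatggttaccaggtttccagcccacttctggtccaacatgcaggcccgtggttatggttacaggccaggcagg

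The Hmgcs1 window held the SRE-1 core at -137 with 4 NF-Y boxes and 3 GC boxes around it. The Msmo1 window held 3 NF-Y boxes and 2 GC boxes and no SRE-1 core, and the windows of Elovl6 and Lpin1 held none of the 4 motifs. Among members, the NF-Y box was present in 62.2% of windows against 37.4% of all 32851 windows in the table, and the GC box in 67.6% against 35.7%. The E-box was present in 18.9% of member windows against 7.15% of all windows. The SRE-1 core was in 2.7% of member windows against 1.24% of all windows. These are matches of letters, given as a description.

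Libraries held 3417167 to 7856830 counts, so that 3 counts corresponded to 0.368 to 1.03 CPM (counts scaled to library size, here with trimmed mean of M-values factors), and intervals from counting cover counting error only. The epithelial markers Krt8, Krt18, Epcam and Cdh1 were detected in all 18 libraries, as were the basal and mesenchymal markers Krt5, Krt14, Trp63, Vim, Fn1 and Cdh2, whereas Krt19 had 1 count in all and no library had a count of Adgre1, Cdh5 or Lep. Summed fibroblast markers reached at most 3.58 CPM and summed leukocyte markers at most 19.5 CPM, the latter in an A-485 library. The summed level of the 3 basal markers was 594 to 1126 CPM in DMSO and 260 to 334 CPM in A-241, and that of the 3 mesenchymal markers was 685 to 745 CPM in DMSO and 428 to 481 CPM in A-241. The highest basal value was that of DMSO replicate 3, with 688 and 594 CPM in the other DMSO libraries. Summed epithelial markers overlapped, at 656 to 1106 CPM in DMSO and 651 to 769 CPM in A-241. There DMSO replicate 3 was the low library, with 1106 and 951 CPM in the others. The basal and mesenchymal levels moved with the inhibitor along with the genes below, and the part of these marker levels in the results was not tested. In bulk RNA, fewer cells expressing a gene and less RNA per cell cannot be told apart.

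DMSO replicate 3 and IFNγ replicate 2 stood apart from the other 16 libraries. The noncoding RNA Gm42418 took 20.1% and 23.0% of their counts, against 7.11% to 16.2% in the others. Both deviated alike from the other libraries of their conditions over the 35 members (Pearson r = 0.919 across genes, which are not independent, and r = 0.828 over all 11964 genes tested). Mvd, mevalonate diphosphate decarboxylase, was at 649 CPM in DMSO replicate 3 and 653 CPM in IFNγ replicate 2, and at 148, 105, 89.3 and 100.3 CPM in the other libraries of these 2 conditions. Fads2, Pmvk, Fdps and Acaca were also over 1 log2 unit higher in both libraries, while Srebf1, Scap, Fdft1, Elovl5 and Hsd17b7 were over 1 log2 unit lower in both. Sqle and Stard4 differed little from the other libraries. They also had the fewest counts, 3417167 and 4251408, against 4280273 to 7856830 in the others, and low scaling factors of 0.849 and 0.792. Both are control libraries, so the counts of called members for each inhibitor against its control, and the fold changes that turn on these libraries, are given with and without them. Without them DMSO and IFNγ keep 2 libraries each. The 2 libraries were set apart by expression values of these same data.

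**Figure D1:**
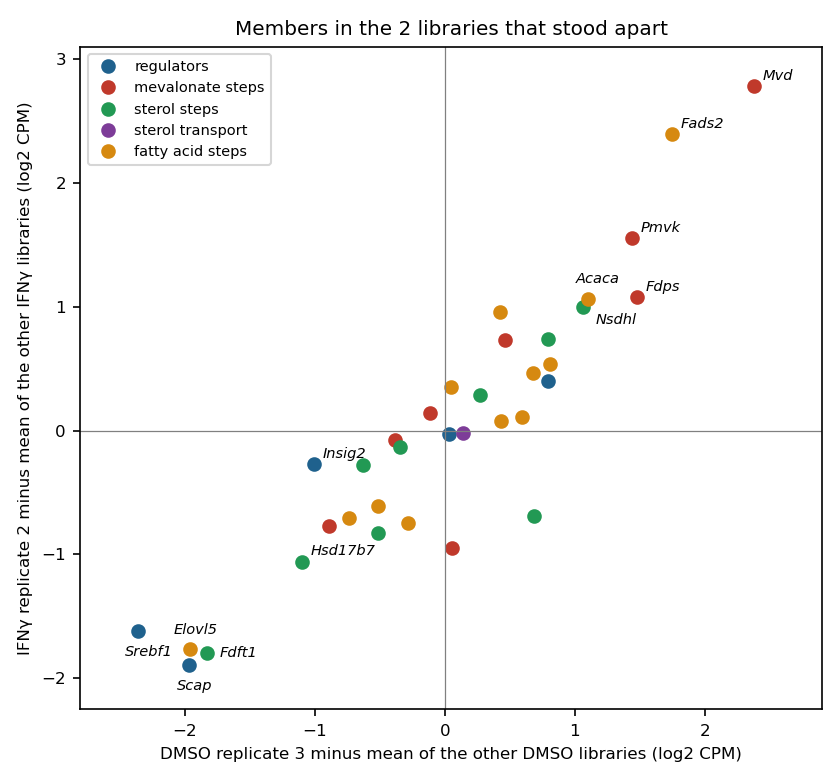
Each point is 1 of the 35 members, placed by its log2 CPM in DMSO replicate 3 (x axis) and in IFNγ replicate 2 (y axis), each minus the mean of the other libraries of the same condition. Colours give the role, and members past 1 log2 unit on the x axis are named. Mvd lies 2.38 and 2.78 log2 units above the other libraries, and Scap 1.97 and 1.90 below.

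Without IFNγ, A-241 lowered 6 of the 35 members, of which 4 act in fatty acid and glycerolipid synthesis, 1 in sterol synthesis and 1 in sterol transport. The summed level of the 35 members was 2423 to 3177 CPM in DMSO and 1465 to 1606 CPM in A-241, with no overlap, and without Mvd it was 2318 to 2527 CPM against 1391 to 1532 CPM. The members called lower (17.1%) were Sqle, Scd1, Scd2, Elovl6, Lpin1 and Stard4, and none was called higher, where a call is a Benjamini-Hochberg adjusted p under 0.01 in the edgeR quasi-likelihood test over all genes. Of all genes tested, 3.53% were called lower. The median log2 fold change of the members was -0.51, against 0.01 over all genes, and 28 of 35 estimates were below 0. The libraries of the conditions did not overlap, with A-241 lower, for 18 members, against 13.4% of all genes tested. With A-241 higher this held for 1 member, against 13.3% of all genes. Lpin1 passed the filter on low counts through its control libraries alone. With at least 10 counts required in every library it was untested, and 5 members were called (4.79% of all genes in either direction).

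A-485 gave a smaller set of calls. Only Sqle was called lower against DMSO (2.86% of members, against 0.619% of all genes), with no member called higher, although 29 of 35 estimates were below 0 and the median was -0.43 (all genes -0.00). Summed levels were 1665 to 1944 CPM in A-485, below all DMSO libraries. For 14 members the A-485 libraries all lay below the DMSO libraries, against 8.84% of all genes, and for 1 member all above, against 7.07%. Without the 2 libraries that stood apart, 14 members were called lower with A-241 (6.52% of all genes) and 8 with A-485 (2.28% of all genes). The 14 include Lpin1, with its limit from the filter.

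**Figure D2:**
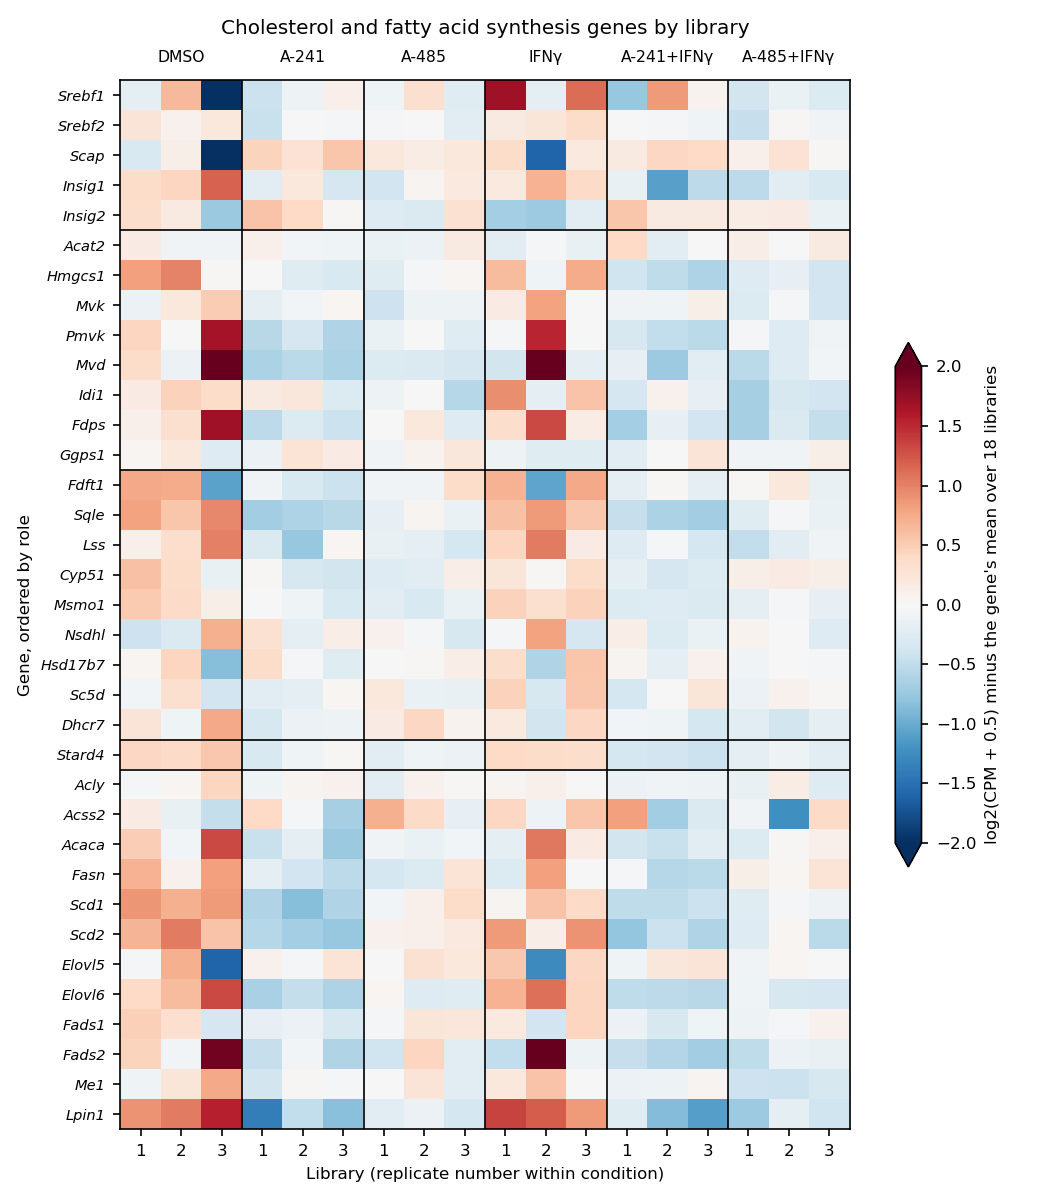
Rows are the 35 members ordered by role (regulators, mevalonate steps, sterol steps, transport, fatty acid steps) and columns the 18 libraries by condition. Colour is log2(CPM + 0.5) minus the gene's mean over the libraries, cut at 2 units in either direction. Sqle, Scd1, Scd2, Elovl6 and Lpin1 are red in all DMSO libraries and blue in all A-241 libraries, and DMSO replicate 3 and IFNγ replicate 2 differ from their neighbours in rows such as Mvd, Fads2 and Scap.

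Among the regulators no member was called in any comparison with all libraries. Srebf2, which encodes SREBP-2, was at 102, 90.4 and 98.2 CPM in DMSO, at 62.3, 85.3 and 83.3 CPM in A-241 and at 84.0, 85.9 and 73.7 CPM in A-485. Under IFNγ it was at 96.9, 101 and 110.4 CPM, with A-241 at 84.7, 83.1 and 79.9 CPM, and with A-485 at 62.1, 86.2 and 81.1 CPM. All inhibitor libraries lay below their controls, but the log2 fold change of -0.33 ± 0.16 (SE) with A-241 had an adjusted p of 0.215. Srebf1, which encodes SREBP-1, was at 5.05, 9.45 and 1.03 CPM in DMSO, at 4.20, 5.4 and 6.31 CPM in A-241 and at 5.46, 7.43 and 4.87 CPM in A-485. Under IFNγ alone it was at 20.0, 5.05 and 13.3 CPM, with A-241 at 3.26, 10.9 and 6.17 CPM, and with A-485 at 4.39, 5.28 and 4.74 CPM. Srebf1 was thus spread within conditions, its lowest value was that of DMSO replicate 3, and its exons overlap those of Rai1, whose reads the counting could share. Without the 2 libraries that stood apart Srebf1 was called lower with A-485 under IFNγ (log2 fold change -1.81 ± 0.35, adjusted p = 0.00315, edgeR). Insig1, the feedback target, was at 16.0, 16.7 and 28.6 CPM in DMSO, at 10.5, 14.4 and 9.67 CPM in A-241 and at 9.33, 12.8 and 14.1 CPM in A-485. With IFNγ it was at 14.2, 20.2 and 16.2 CPM, with A-241 added at 11.1, 5.53 and 8.44 CPM, and with A-485 added at 8.40, 10.6 and 9.86 CPM. Inhibitor and control libraries of Insig1 did not overlap in any of these 4 comparisons, and its smallest adjusted p was 0.0366. Scap and Insig2 had log2 fold changes of 0.90 and 0.33 in A-241 against DMSO, neither of which was called, and DMSO replicate 3 was the low library for both (4.48 CPM of Scap and 18.3 CPM of Insig2, against 16.0 and 21.7 CPM and 39.3 and 34.8 CPM in the other DMSO libraries). With the 2 libraries that stood apart left out, the values were 0.48 and 0.05, that of Insig1 went from -0.80 to -0.54 and that of Srebf2 was -0.35, none of them called.

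Among the mevalonate and isoprenoid steps no member was called with all libraries. Hmgcs1, the synthase that makes HMG-CoA for the mevalonate route, was at 240.6, 270.2 and 138 CPM in DMSO, at 135, 114 and 110.4 CPM in A-241 and at 114, 131 and 139 CPM in A-485. In IFNγ libraries it was at 211, 128 and 228 CPM, with A-241 added at 103, 95.5 and 88.1 CPM, and with A-485 added at 114, 122 and 104 CPM. The low controls were DMSO replicate 3 and IFNγ replicate 2, and only A-485 against DMSO overlapped. With all libraries the log2 fold change with A-241 was -0.85 ± 0.23 (adjusted p = 0.0307, edgeR). Without both libraries it was -1.13 ± 0.13 with A-241 and -1.03 ± 0.13 with A-485, each called, with adjusted p of 4.64e-06 and 6.43e-05. The kinase Pmvk and the decarboxylase Mvd were likewise called lower with A-241 against DMSO only without both libraries, at -0.77 and -0.78, and there these 2 libraries were the high ones. Idi1, the isopentenyl diphosphate isomerase, was called without them under IFNγ, at -0.92 with A-241 and -1.27 with A-485. Fdps, farnesyl diphosphate synthase, had an estimate of -1.29 ± 0.36 (log2) in A-241 against DMSO and was not called (adjusted p = 0.035, edgeR) and of -0.66 ± 0.17 without the 2 libraries (adjusted p = 0.0106), and Acat2, the thiolase of the first step, Mvk and Ggps1 were not called in any comparison.

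Sqle, squalene epoxidase, was the member called in all 4 comparisons of an inhibitor with its control. Its gene (chr15:59315077-59331192, GRCm38, plus strand) shares no exon bases with another annotated gene. Sqle was at 91.9, 77.2 and 102 CPM in DMSO, at 32.1, 33.8 and 35.3 CPM in A-241 and at 46.5, 54.1 and 47.5 CPM in A-485. After IFNγ its levels were 78.3, 94.2 and 76.2 CPM, with A-241 added at 37.6, 33.4 and 32.1 CPM, and with A-485 added at 44.1, 51.0 and 47.4 CPM. The 6 control libraries all lay above the 6 A-485 libraries, which all lay above the 6 A-241 libraries. The level was 2.67-fold lower with A-241 than in DMSO (log2 fold change -1.42 ± 0.15, adjusted p = 1.28e-05, edgeR) and 1.83-fold lower with A-485 (-0.87 ± 0.14, adjusted p = 0.00399). Under IFNγ the log2 fold changes were -1.27 ± 0.15 and -0.80 ± 0.14, with adjusted p of 3.03e-05 and 0.00814. Against DMSO the A-485 call was lost without DMSO replicate 1 (-0.85, adjusted p = 0.016), DMSO replicate 3 (-0.76, 0.0134), A-485 replicate 1 (-0.82, 0.0355) or A-485 replicate 3 (-0.87, 0.0154), and under IFNγ it was lost without any 1 of the 6 libraries (adjusted p 0.0138 to 0.0656), though it was kept in both when the 2 libraries that stood apart were left out together.

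Msmo1, the methylsterol monooxygenase, was at 99.5, 90.4 and 74.8 CPM in DMSO, at 68.4, 65.2 and 55.9 CPM in A-241 and at 58.8, 55.6 and 62.6 CPM in A-485. IFNγ libraries held it at 94.9, 86.5 and 94.6 CPM, with A-241 added at 56.7, 57.3 and 56.4 CPM, and with A-485 added at 61.1, 67.1 and 61.6 CPM. Inhibitor and control libraries did not overlap in these comparisons. It was called with A-241 under IFNγ only (log2 fold change -0.70 ± 0.13, adjusted p = 0.0035, edgeR), a call that was lost without IFNγ replicate 1 or 3 or without any A-241+IFNγ library (adjusted p 0.0153 to 0.0211), and in all 4 comparisons without the 2 libraries that stood apart. Fdft1, squalene synthase, whose exons overlap those of Ctsb, was also called in all 4 without them, at -1.06, -0.71, -0.86 and -0.71 for A-241 and A-485 without IFNγ and then with it. Cyp51, the lanosterol demethylase, was called without them with A-241 only, at -0.73 against DMSO and -0.58 under IFNγ. Lss, lanosterol synthase, and Nsdhl, Hsd17b7, Sc5d and Dhcr7, of the later sterol steps, were not called in any comparison with or without these libraries.

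Stard4, which carries sterol between membranes, was at 42.1, 41.0 and 45.8 CPM in DMSO, at 25.4, 29.6 and 31.7 CPM in A-241 and at 27.1, 29.5 and 29.0 CPM in A-485. Under IFNγ its level was 41.6, 40.4 and 40.3 CPM, with A-241 added at 24.5, 23.9 and 23.0 CPM, and with A-485 added at 27.7, 29.3 and 26.7 CPM. All 12 inhibitor libraries lay below all 6 control libraries. The log2 fold changes were -0.57 ± 0.12 with A-241 and -0.59 ± 0.12 with A-485 against DMSO, and only the first was called (adjusted p = 0.00803 and 0.0204, edgeR). Under IFNγ they were -0.77 ± 0.12 (adjusted p = 0.00077) and -0.55 ± 0.12 (0.0344). The call against DMSO was lost without any 1 of its 6 libraries, with adjusted p of 0.0153 to 0.0519, while all 4 comparisons were called when the 2 libraries that stood apart were left out together.

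Among the fatty acid and glycerolipid steps, 4 of 12 members were called lower with A-241 against DMSO, including Lpin1, which passed the filter through its control libraries alone. Scd1, a stearoyl-CoA desaturase (chr19:44394455-44407879, minus strand), was at 246, 216 and 238 CPM in DMSO, at 87.3, 73.3 and 87.3 CPM in A-241 and at 127, 142 and 172 CPM in A-485. With IFNγ it was at 138, 197 and 173 CPM, with A-241 added at 93.4, 93.2 and 98 CPM, and with A-485 added at 112, 129 and 124 CPM. DMSO lay highest and A-241 lowest, with A-485 between them. Scd2, its neighbour on chromosome 19 (chr19:44293674-44306864, plus strand), was at 148, 189 and 138 CPM in DMSO, at 61.7, 57.4 and 54.2 CPM in A-241 and at 98.1, 99.2 and 105 CPM in A-485. In IFNγ libraries it was at 167, 101 and 172 CPM, with A-241 added at 53.6, 68.0 and 60.3 CPM, and with A-485 added at 77.2, 94.9 and 63.5 CPM. The log2 fold changes with A-241 against DMSO were -1.50 ± 0.16 for Scd1 and -1.46 ± 0.21 for Scd2 (adjusted p = 1.65e-05 and 0.000263, edgeR). With A-485 they were -0.67 ± 0.16 and -0.65 ± 0.20, which were called only without the 2 libraries that stood apart. Under IFNγ with A-241 they were -0.84 ± 0.16 and -1.27 ± 0.21 (adjusted p = 0.0029 and 0.00077), and the Scd1 call was lost without IFNγ replicate 3 (adjusted p = 0.0114) or A-241+IFNγ replicate 1 (0.0178) or 2 (0.0164).

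Elovl6, which elongates palmitate, was at 24.8, 29.3 and 47.6 CPM in DMSO, at 11.8, 13.4 and 12 CPM in A-241 and at 19.2, 15.6 and 15.8 CPM in A-485. After IFNγ its levels were 30.5, 40.7 and 25.5 CPM, with A-241 added at 13.0, 12.9 and 12.6 CPM, and with A-485 added at 17.6, 14.8 and 14.8 CPM. The 6 A-241 libraries lay below the 6 A-485 libraries, and these below the controls. Lpin1, a phosphatidate phosphatase of glycerolipid synthesis, had few reads, with 19, 28 and 19 counts in DMSO (4.0, 4.41 and 6.55 CPM), 2, 6 and 4 counts in A-241 (0.420, 1.2 and 0.841 CPM) and 9, 9 and 6 counts in A-485 (1.58, 1.71 and 1.39 CPM). With IFNγ it had 46, 17 and 22 counts (5.64, 5.05 and 3.84 CPM), with A-241 added 7, 5 and 3 counts (1.52, 0.813 and 0.617 CPM), and with A-485 added 5, 8 and 7 counts (0.955, 1.63 and 1.33 CPM). Inhibitor libraries lay below the controls throughout. Lpin1 passed the filter on low counts through its control libraries alone, and a filter of at least 10 counts in every library left it untested, with 5 members called in place of 6 for A-241 against DMSO and 6 in place of 7 under IFNγ. The log2 fold changes with A-241 against DMSO were -1.44 ± 0.23 for Elovl6 and -2.53 ± 0.39 for Lpin1 (adjusted p = 0.000718 and 0.000535, edgeR), and with A-485 they were -0.99 ± 0.22 and -1.62 ± 0.35, neither of them called. Without the 2 libraries that stood apart the A-241 values were -1.17 ± 0.16 and -2.36 ± 0.42, both called, Elovl6 was called with A-485 in both settings, at -0.71 and -0.85, and Lpin1 with A-485 under IFNγ, at -1.88. With all libraries, the values for A-241 under IFNγ were -1.32 ± 0.23 and -2.30 ± 0.37 (adjusted p = 0.0013 and 0.00077).

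Fasn, fatty acid synthase, was at 444, 290.5 and 481 CPM in DMSO, at 240.3, 209 and 189 CPM in A-241 and at 215, 225 and 330.1 CPM in A-485. IFNγ libraries held it at 226, 484 and 276 CPM, with A-241 added at 269, 185 and 189 CPM, and with A-485 added at 296, 281 and 331 CPM. Its A-241 libraries lay below DMSO, with a log2 fold change of -0.93 ± 0.27 (adjusted p = 0.0437, edgeR), but conditions overlapped under IFNγ. Fads1, a desaturase of polyunsaturated fatty acids, was called with A-241 against DMSO only without the 2 libraries, at -0.65, as was Fasn at -0.82. Acly and Acss2, which supply acetyl-CoA, Acaca, acetyl-CoA carboxylase, Elovl5, Fads2 and Me1, malic enzyme, were not called in any comparison.

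**Figure D3:**
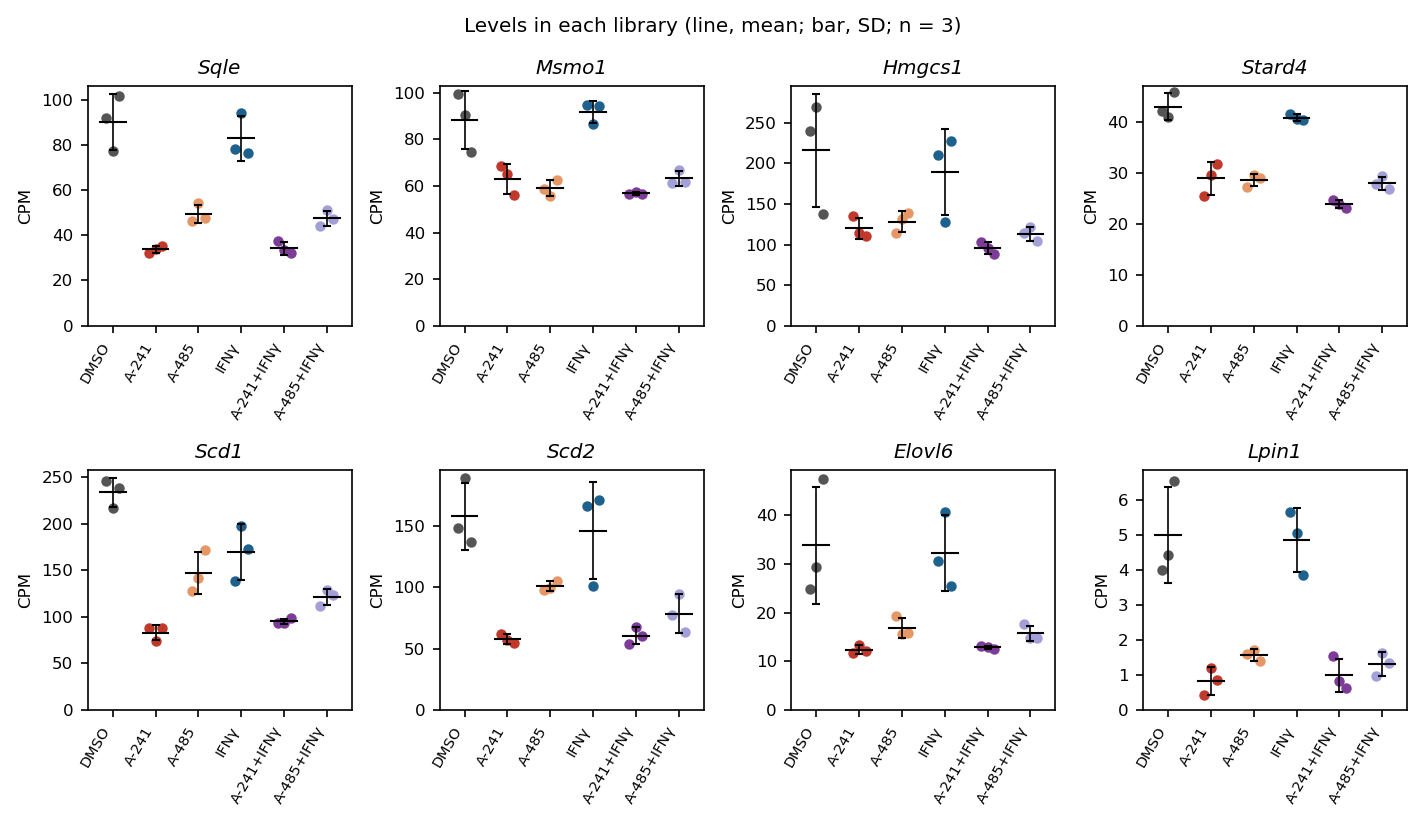
Levels in CPM (linear axes from 0) of 8 members in each of the 18 libraries, with points for libraries, a line for the mean and a bar for the SD (n = 3) of each condition. Sqle and Stard4 show control libraries above all inhibitor libraries, and the A-241 libraries of Sqle, at 32.1 to 37.6 CPM, lie below those with A-485, at 44.1 to 54.1 CPM.

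**Figure D4:**
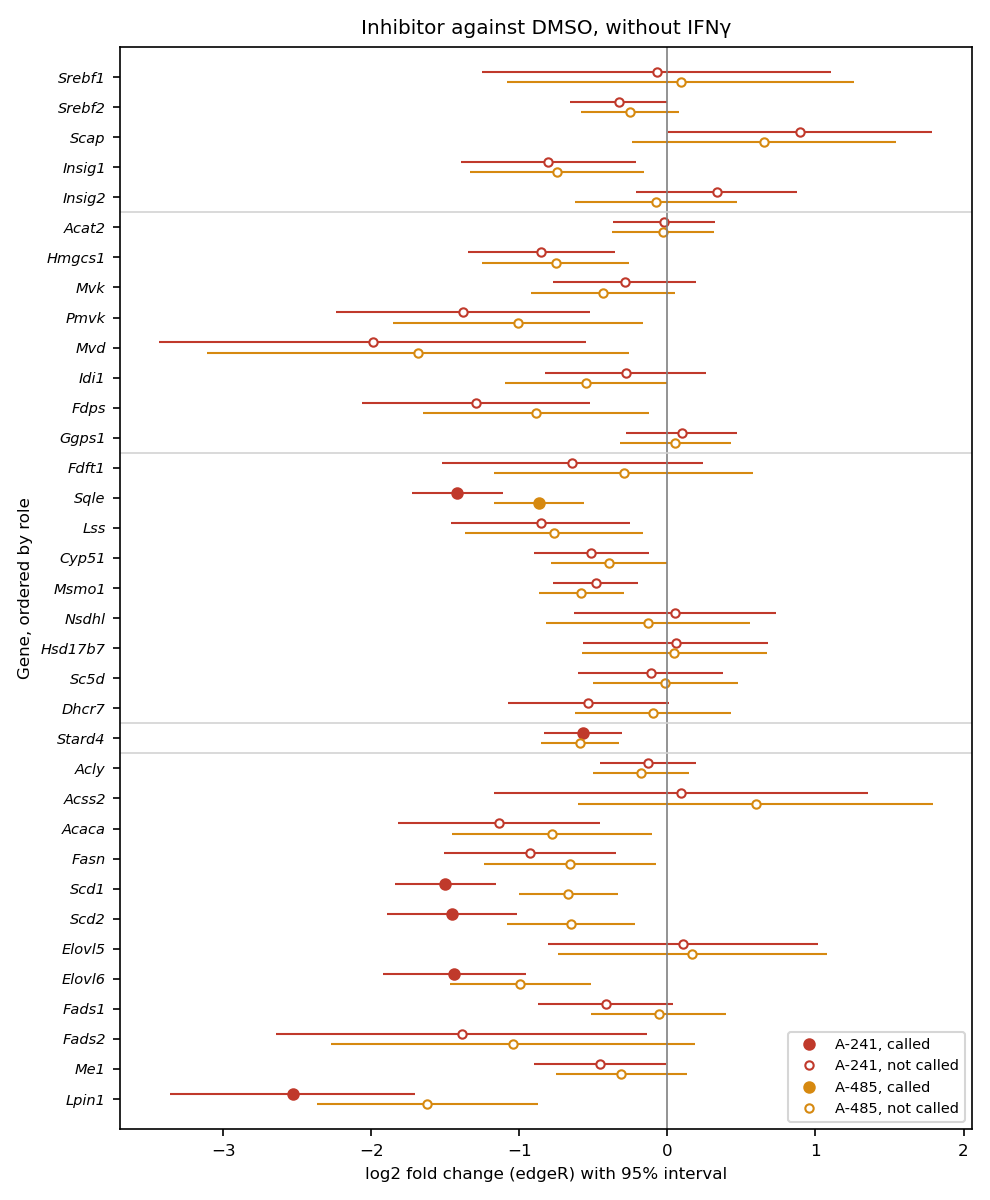
Log2 fold changes (edgeR) against DMSO for the 35 members, with 95% intervals, for A-241 (red) and A-485 (orange). Filled points are called at an adjusted p under 0.01, which are 6 for A-241 and 1 for A-485, and the widest intervals belong to members such as Mvd, Fads2 and Srebf1 that differed in DMSO replicate 3.

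IFNγ alone gave no called member against DMSO, with 2 members at an unadjusted p under 0.05 (Scd1, -0.46 ± 0.16, and Srebf1, 1.23 ± 0.53, adjusted p = 0.25 and 0.491, edgeR), and 5 when the 2 libraries that stood apart were left out (4 lower and 1 higher, none called). Of all genes, 1.30% were called in either direction. At an unadjusted p under 0.05, 447 of 11964 genes were lower and 569 higher. Without the 2 libraries these were 1198 and 1035 of 12135 genes. Adding IFNγ to A-241 or to A-485 gave no called member either, where 0.192% and 0.802% of all genes were called, with 1 member (Stard4) and 0 members at an unadjusted p under 0.05, and 2 and 4 without the 2 libraries. Of all genes tested, 182 were lower and 265 higher at that p for A-241, and 252 and 446 for A-485. Without the 2 libraries these were 396 and 538, and 677 and 839. A missed threshold does not show that IFNγ left a gene alone.

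Under IFNγ, A-241 lowered 7 members (20.0%, against 3.54% of all genes), the 6 called without IFNγ and Msmo1, and A-485 lowered Sqle alone (2.86%, against 0.535%). Medians were -0.62 and -0.54 over the members (all genes -0.02 and -0.03). Libraries did not overlap, with the inhibitor lower, for 16 members in the case of A-241 and for 15 in that of A-485 (12.1% and 10% of all genes). With the inhibitor higher this held for 1 and 3 members (11.7% and 10.6% of all genes). Without the 2 libraries, 11 members were called with A-241 (5.88% of all genes) and 10 with A-485 (2.37%). Both counts include Lpin1, which passed the filter on low counts through its control libraries alone. With all libraries and at least 10 counts required in each, Lpin1 was untested and 6 members were called with A-241 (3.86% of all genes in either direction). The interaction of inhibitor and IFNγ was called for no member, with 1 member (Scd1, 0.66 ± 0.22, adjusted p = 0.898, edgeR) and 0 members at an unadjusted p under 0.05 for A-241 and A-485, where 0.0334% and 0% of all genes were called. Leaving out the 2 libraries put 3 and 6 members at an unadjusted p under 0.05, again with no call. Of all genes tested with all libraries, 231 lay below 0 and 170 above at that p for A-241, and 242 and 257 for A-485. Without the 2 libraries these were 433 and 634, and 707 and 893. DESeq2 and limma-voom also called 0 members for IFNγ against its absence, in each of the 3 settings, and for both interactions.

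Across the 35 members the log2 fold changes without and with IFNγ, from conditions that share no library, had a Pearson r of 0.906 for A-241 and 0.697 for A-485 (all genes 0.723 and 0.481). Without the 2 libraries, which deviate alike and sit in the separate controls, r was 0.798 and 0.461 (all genes 0.649 and 0.386), and 30 and 26 members had estimates below 0 in both.

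**Figure D5:**
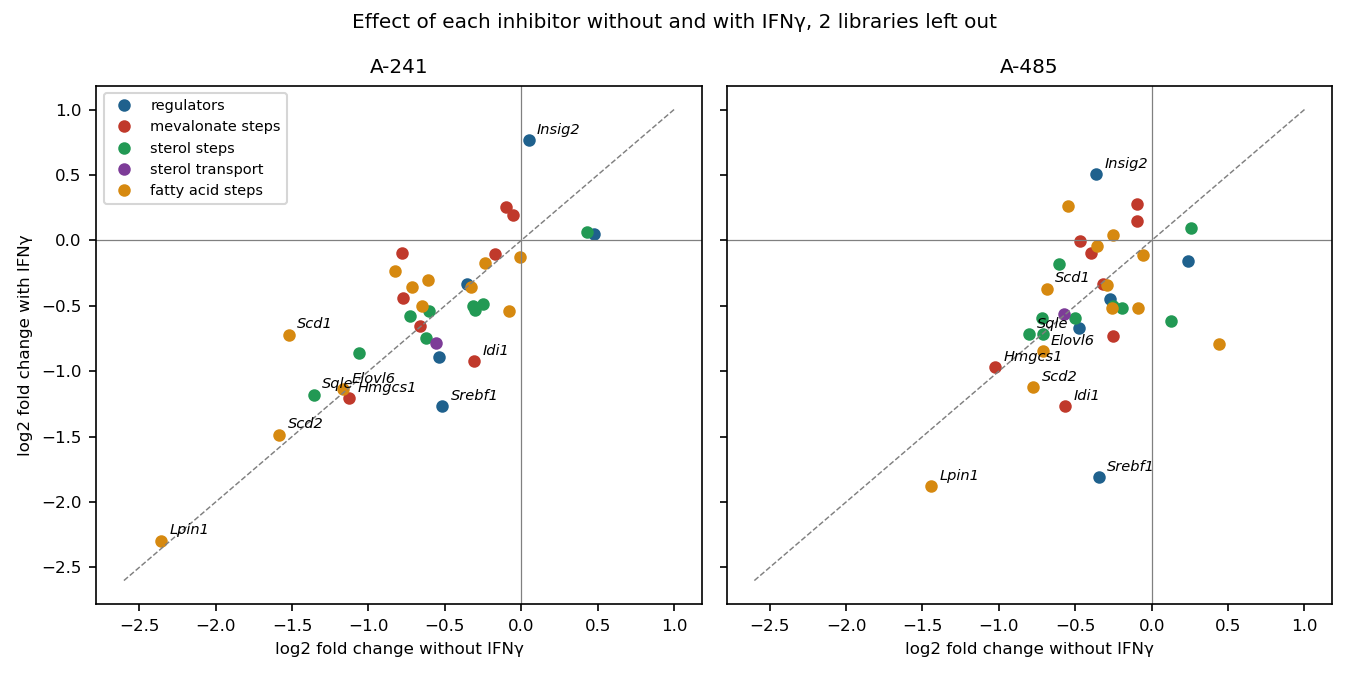
Each point is 1 of the 35 members, placed by its log2 fold change with A-241 (left) or A-485 (right) without IFNγ (x axis) and with IFNγ (y axis), DMSO replicate 3 and IFNγ replicate 2 left out. The dashed line marks equal change and colours give the role, and most points lie in the lower left part, with Lpin1 farthest out for A-241.

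The inhibitors were used at 250 nM and 1000 nM, so a difference between them is one between these treatments. No member was called between A-241 and A-485 with all libraries, against 0.351% of all genes called lower in A-241, and 11 members lay wholly lower in A-241 (11.3% of all genes). At an unadjusted p under 0.05 there were 3 members, Scd1, Scd2 and Sqle, all lower in A-241. At that threshold 554 of the 11964 genes tested were lower in A-241 and 421 higher. DESeq2 called 1 member and limma-voom 0. The log2 differences of Scd1, Scd2 and Sqle (A-241 minus A-485) were -0.83 (95% interval -1.17 to -0.49, adjusted p = 0.0167), -0.80 (-1.24 to -0.37, 0.0887) and -0.55 (-0.86 to -0.24, 0.106) in the edgeR test. All 3 were called without the 2 libraries (1.48% of all genes), at -0.83, -0.81 and -0.55 (neither library belongs to these conditions, so the shared estimate of the spread, the scaling and the genes tested are what changed). For Stard4 the difference was 0.02. Under IFNγ no member was called (0.510% of all genes lower), with Sqle, Scd1 and Cyp51 at an unadjusted p under 0.05 and 9 members wholly lower in A-241+IFNγ (11.8%). At that p 536 of the 11964 genes tested were lower in A-241+IFNγ and 242 higher. Neither DESeq2 nor limma-voom called a member there.

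Of 48 further genes of sterol and fatty acid handling, chosen as a list, 42 were tested. With A-241 against DMSO 1 of the 42 was called lower, against 3.53% of all genes, and 1 higher, against 99 of 11964 genes. The median was -0.01. Without the 2 libraries 2 were called lower (Acsl3 and Tmem97), against 6.52% of all genes, and none higher. Acsl3 was the 1 called lower with A-485 against DMSO and with A-241 under IFNγ (0.619% and 3.54% of all genes). Acsl1 was the 1 called higher with IFNγ against DMSO, against 144 of 11964 genes. The genes named here are given as a description and not as a result about the list. Acsl3, a long-chain acyl-CoA synthetase, was at 127, 119 and 122 CPM in DMSO, at 52.1, 55.0 and 45.4 CPM in A-241 and at 57.1, 52.2 and 67.5 CPM in A-485. Its log2 fold changes were -1.27 ± 0.17 and -1.06 ± 0.17 (adjusted p = 0.000177 and 0.00363, edgeR), and -0.83 ± 0.17 with A-241 under IFNγ (adjusted p = 0.00582). Acsl3 was called in these 3 comparisons without the 2 libraries too, at -1.31, -1.10 and -0.62. Soat1, which esterifies cholesterol, was higher with A-241, at 14.1, 13.6 and 14.5 CPM against 8.20, 7.25 and 4.48 CPM in DMSO (1.05 ± 0.23, adjusted p = 0.00818), and was no longer called without the 2 libraries (0.83 ± 0.22, adjusted p = 0.0159). Acsl1, another acyl-CoA synthetase, was higher with IFNγ, at 6.62, 9.21 and 6.28 CPM against 2.73, 2.68 and 2.07 CPM in DMSO (1.51 ± 0.29, adjusted p = 0.00823), a call that was also lost without them (1.24 ± 0.33, adjusted p = 0.0403).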

How the data were processed

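The authors deposited raw counts per gene for 18 libraries. Per the labels and the study's methods, reads were demultiplexed (bcl2fastq 2.17.1.14), checked (FastQC 0.11.5), trimmed (cutadapt 1.7), aligned to the mouse genome GRCm38/mm10 with HISAT2 (2.1.0) and counted over exons with featureCounts, without a strand option and with a read over exons of several genes counted for each, so that 13 members that share exon bases with another gene may carry its reads. Those 13 include Scd2 (shared with Mir5114) and Elovl6 (Gm35986), which were called with all libraries. They also include Hmgcs1 (Gm48342), Idi1 (Gm48574), Fdft1 (Ctsb), Cyp51 (Akap9) and Srebf1 (Mir6922 and Rai1), called only without the 2 libraries that stood apart. The annotation release is not given in the sources used here. Symbols and coordinates came from GENCODE vM21 (42462 of 43629 identifiers matched, 97.3%).

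Counts were fitted in edgeR 4.0.16 (R 4.3.3) with trimmed mean of M-values factors, filterByExpr and 1 quasi-likelihood model with a mean per condition. The code was run on counts simulated independently for each library. No simulated library was made to stand apart, so that run does not cover the effect of the 2 libraries that did. The common biological coefficient of variation was 0.263. Genes with a Benjamini-Hochberg adjusted p under 0.01 over all genes tested were called. The members and lists were chosen with earlier results of these data known. Values in every library are given for each member called and, called or not, for Srebf1, Srebf2, Insig1, Hmgcs1, Sqle, Fasn and Scd2; the other pathway genes are given as counts, with those called named. Alternatives used DESeq2 1.42.0, limma 3.58.1 and sva 3.50.0. Replicates of 1 condition differed beyond sampling noise (chi-square per degree of freedom 2.09 to 125 over 18 pairs), so none was counted as a duplicate.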

Additional observations from a re-analysis of the deposited data

How the results depend on the processing

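Over the alternatives no called direction reversed. For the 4 comparisons of an inhibitor with its control, the count of called members stayed within 1.5 times in 36 of 72 runs (13 of 18 for A-241 in each setting, 7 of 18 for A-485 against DMSO and 3 of 18 for A-485 under IFNγ). In the other comparisons the count stayed at 0 in 133 of 138 runs. The counts below are followed by the share of all genes called in either direction under the same setting. For A-241 against DMSO the count of 6 (4.35%) became 10 with DESeq2 (6.80%), 12 at an adjusted p under 0.05 (9.07%), 14 without DMSO replicate 3 and IFNγ replicate 2 (8.13%), 17 with 2 surrogate variables (17.7%), 1 of them higher, and 1 with only the compared groups fitted (0.676%). For A-485 against DMSO the count of 1 (0.660%) became 6 with DESeq2 (2.06%), 6 at an adjusted p under 0.05 (2.04%), 8 without both libraries (2.46%), 13 with surrogate variables (6.67%), and 0 with no filter (0.385%), the replicate block (0.426%) or only the compared groups (0%); leaving out 1 library gave 0 to 1. For A-241 against A-485 the count of 0 (0.368%) became 1 with DESeq2 (1.07%), 1 at an adjusted p under 0.05 (0.945%), 3 without both libraries (1.73%), 3 with surrogate variables (4.65%) and 2 with only the compared groups (1.10%). For A-241 under IFNγ the count of 7 (4.09%) became 4 with total counts (3.26%), 4 with no filter (1.90%), 11 without both libraries (7.82%), 17 with surrogate variables (12.6%) and 0 with only the compared groups (0.734%). For A-485 under IFNγ the count of 1 (0.552%) became 6 with DESeq2 (1.95%), 5 at an adjusted p under 0.05 (1.74%), 10 without both libraries (2.68%), 8 with surrogate variables (2.87%), and 0 with upper-quartile factors (0.451%), total counts (0.293%), no filter (0.363%), the replicate block (0.242%) or only the compared groups (0%); leaving out 1 library gave 0 to 2. Each rise in members called came with a rise in the share of all genes called, except for A-241 under IFNγ without IFNγ replicate 2. There 8 members were called, against 4.08% of all genes. The cause of these rises was not tested. Replicate numbers only name the libraries: of 45 same-numbered pairs 15 correlated over 0.1 and 3 of 18 libraries correlated best with their own number, so the replicate block, which lost the calls of Stard4 with A-241 against DMSO and of Sqle with A-485, is given here only. The median over members stayed below 0 in every run of the 4 inhibitor comparisons, from -0.58 to -0.41, -0.52 to -0.32, -0.66 to -0.41 and -0.58 to -0.44. The widest standard errors with A-241 against DMSO were those of Mvd (0.68), Acss2 (0.60), Fads2 (0.59) and Srebf1 (0.56), and the fewest reads were those of Acss2, with 2 to 19 counts a library, and Lpin1, with 2 to 46.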
